A study of Mus musculus with 2 samples.

Results

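The genes described here are 10 members of the Notch signalling pathway and its lineage switch, chosen by symbol: the receptors Notch1, Notch2 and Notch3, the ligands Dll1, Dll4, Jag1 and Jag2, the target Hes1, the regulator Dtx4 and the transcription factor Atoh1. All 10 were found among the 18944 genes listed in both expression tables, and all 10 reached 1 FPKM, the authors' unit of expression per transcript length and library size, in at least 1 library. RNA sequencing was done on cultured mouse cells labelled intestinal stem cells, the crypt cells that renew the gut lining, from mice aged 2 months. The series holds 2 libraries, both of the Lgr5GFP-CreERT2 genotype, in which the stem cell gene Lgr5 drives a fluorescent reporter and a tamoxifen-inducible Cre. The WT library is labelled wild type otherwise, and the KO library is labelled Stat6 KO, lacking the transcription factor that interleukins 4 and 13 activate. Per the labels, a CRISPR/Cas lentivirus with Stat6 guides was used and deficient cells were obtained by screening. That text stands under both samples, so whether the WT cells received a control virus, and whether the KO cells were 1 clone, are not given. Both cultures were grown with EGF, R-spondin 1, N-acetylcysteine and the ROCK inhibitor Y27632, per the labels. No Notch ligand or inhibitor is named among the medium's components.

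Notch receptors are cut after they bind a Delta or Jagged ligand on a neighbouring cell, and the released intracellular part joins the DNA-binding protein RBPJ in the nucleus and turns on targets such as Hes1. HES1 is a repressor of Atoh1, the factor that commits intestinal progenitors to the secretory lineages (goblet, Paneth, enteroendocrine and others), while progenitors with active Notch become absorptive enterocytes. In crypts, NOTCH1 and NOTCH2 act in stem cells and progenitors, and DLL1 and DLL4 on secretory cells are the ligands best known to activate them.

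The promoters of 4 members that stood apart in direction are shown, for the receptors Notch1 and Notch2 and the ligand Jag1, all lower in KO, and the ligand Dll4, higher in KO. Each is the 250 bases before the transcription start, from RefSeq on build GRCm38.p6, a later build than the mm9 used for the expression values, so no measured value depends on it. Notch1 lies at chr2:26503823-26504072 on the minus strand, Notch2 at chr3:98013288-98013537 on the plus strand, Jag1 at chr2:137116521-137116770 on the minus strand and Dll4 at chr2:119325534-119325783 on the plus strand. Capitals mark matches to any of 4 patterns searched on both strands, namely the RBPJ core TGGGAA, the E-box CANNTG bound by factors such as ATOH1, the N-box CACNAG bound by HES repressors, and the spacing TTCNNNNGAA that STAT6 prefers.
Notch1: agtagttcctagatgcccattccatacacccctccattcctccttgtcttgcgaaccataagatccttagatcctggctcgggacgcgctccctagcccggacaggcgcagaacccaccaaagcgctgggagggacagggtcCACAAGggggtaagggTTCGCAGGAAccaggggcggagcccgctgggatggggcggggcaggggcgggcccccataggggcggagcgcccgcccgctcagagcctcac
Notch2: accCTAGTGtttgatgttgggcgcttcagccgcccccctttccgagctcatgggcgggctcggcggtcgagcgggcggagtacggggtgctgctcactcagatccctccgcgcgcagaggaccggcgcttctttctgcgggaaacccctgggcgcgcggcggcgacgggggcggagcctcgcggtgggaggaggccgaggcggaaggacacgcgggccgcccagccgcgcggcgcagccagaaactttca
Jag1: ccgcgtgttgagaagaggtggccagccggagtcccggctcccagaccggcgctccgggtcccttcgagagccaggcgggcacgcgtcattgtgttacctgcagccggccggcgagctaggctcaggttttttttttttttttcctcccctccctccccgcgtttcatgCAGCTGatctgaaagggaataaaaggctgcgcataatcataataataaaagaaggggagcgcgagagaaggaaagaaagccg
Dll4: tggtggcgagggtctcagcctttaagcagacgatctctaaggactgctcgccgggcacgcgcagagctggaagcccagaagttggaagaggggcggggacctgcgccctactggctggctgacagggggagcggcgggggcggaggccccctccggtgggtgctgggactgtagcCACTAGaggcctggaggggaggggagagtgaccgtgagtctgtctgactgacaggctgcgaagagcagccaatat
Of the 10 members, 8 had 9 promoters in the table, Dll1 having 2 starts. Hes1 and Dtx4 had no entry. The STAT6 spacing was found in 1 of the 9, that of Notch1, as TTCGCAGGAA from 92 to 83 bases before the start, and in 5.85% of all 32851 promoters. The N-box was found in 4 of 9 (36.7% of all promoters) and the E-box in 3 of 9 (66.2%). The RBPJ core was in 0 of 9 (21.6% of all), and so was the full form GTGGGAA that contains it (5.42% of all). Such a match is a description of letters, and the absence of one in this window says nothing about a factor.

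Each genotype had 1 library, so the differences have no replicate check and no test of genotype was possible. Differences are given as a log2 ratio, log2((KO FPKM + 1)/(WT FPKM + 1)), in which the added 1 understates the change of low genes. A gene counted as measured, as 12079 did, when either library reached 1 FPKM. Depth was estimated as 20100000 reads in WT and 20500000 in KO from the spacing of low FPKM values in short RNA genes, about 0.34 and 0.35 of the 59000000 reads that the labels give as the average. The gap was not resolved, and more reads would narrow the intervals below. At that depth the members rested on between 144 and 1151.5 approximate reads each. The 95% counting intervals below, exact and binomial for ratios, cover counting error only and not the variation between cultures. They hold for this estimated depth and for the deposited scale. The Stat6 transcript read 41.3 FPKM in the WT library against 44.2 in the KO library, and since small CRISPR deletions need not lower a transcript this does not check the genotype label. The defining stem cell gene Lgr5 was at 1.79 and 1.88 FPKM, and 13 enterocyte markers summed to 4788 FPKM in WT against 16721 in KO, so both cultures held differentiated cells. Fewer cells of a type and less RNA per cell cannot be told apart in such libraries.

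Most of the 10 members lay within 1.5-fold between the libraries. Log2 ratios ran from -0.65 to -0.20 for the 3 receptors, were -0.53 and -0.36 for the Jagged ligands, 0.37 and 0.27 for the Delta ligands, 0.11 for Hes1, 0.20 for Atoh1 and -0.96 for Dtx4. None of the 10 members was at least 2-fold higher, where 2.44% of all measured genes were, and 0 were at least 2-fold lower, where 2.19% were. These 2 shares stand beside every 2-fold count below, and in a short list a count of 0 is near them. At a threshold of 1.5-fold on the same log2 ratio, 3 of 10 were lower (Notch1, Notch2 and Dtx4), beside 11.5% of all measured genes. On the higher side there were 0, beside 5.71%. Without the pseudocount Jag1 also passed 1.5-fold, with WT at 1.62 times KO, and Dtx4 passed 2-fold, with WT at 2.12 times KO. The median log2 ratio of the members was -0.28, beside -0.18 for all measured genes. Of the 10, 6 lay below 0 and 4 above it, and each of the 10 kept its sign under all 5 other scalings and pseudocounts tried. A pseudocount cannot turn a sign, and the scalings tried all raised KO relative to WT. Only the 6 lower members could thus have turned. A trimmed-mean (TMM-style) scaling moved the median of all genes from -0.18 to -0.003, and the genes past 2-fold from 52.8% higher and 47.2% lower to 68.9% and 31.1%. Of the members, 6 had log2 ratios between the 10th and 90th percentiles of all measured genes, which were -0.61 and 0.37.

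**Figure D1:**
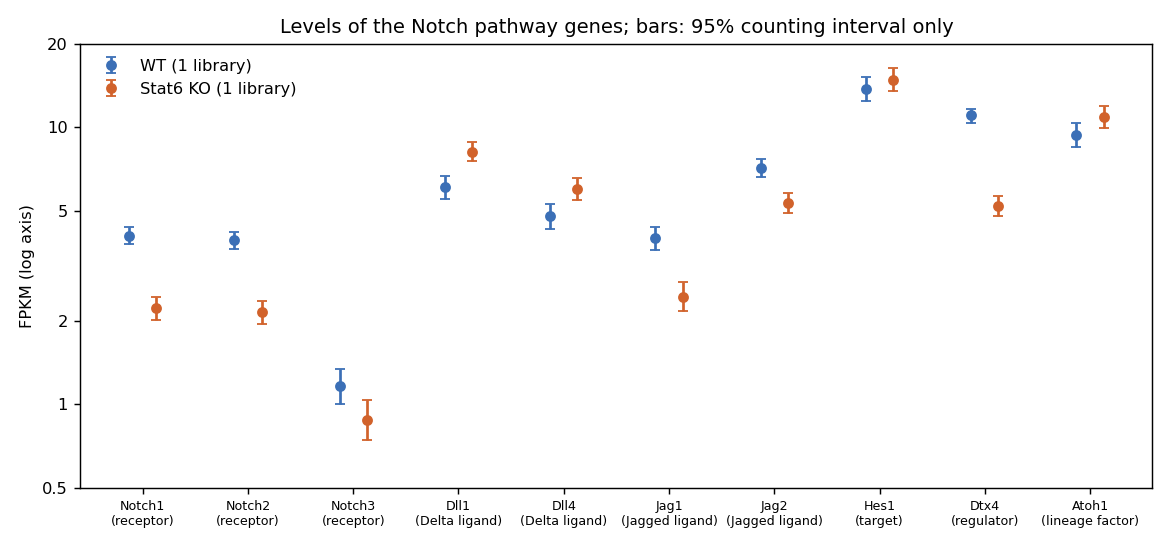
FPKM (log axis) of each of the 10 genes in the WT library (blue) and the Stat6 KO library (orange), with bars for the 95% counting interval, which does not cover differences between cultures. The bars of the 2 libraries stand clear of each other for Notch1, Notch2, Jag1, Jag2 and Dtx4 (KO lower) and for Dll1 and Dll4 (KO higher), and overlap for Notch3, Hes1 and Atoh1.

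The receptors carry the signal into the nucleus. Notch1 (Entrez gene 18128) measured 4.07 FPKM in the WT library against 2.22 in the KO library. Its log2 ratio was -0.65, at percentile 8.4 of all measured genes. Without the pseudocount the KO to WT ratio was 0.545, with a counting interval of 0.484 to 0.615. Notch2 (Entrez gene 18129), the receptor that acts beside Notch1 in crypts, measured 3.91 FPKM in the WT library against 2.15 in the KO library. Its log2 ratio was -0.64, and its KO to WT ratio of 0.550 had an interval of 0.490 to 0.617. The 2 receptors thus stood at nearly the same level in each library and differed by nearly the same factor. Of their promoters printed above, that of Notch1 holds the STAT6 spacing and that of Notch2 does not. The pattern was added to the search after the values were seen, and 5.85% of all promoters hold it. Its part in the receptor levels was not tested.

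Notch3 (Entrez gene 18131), best known from the muscle cells and pericytes around vessels, was the lowest member in both libraries, with 1.16 FPKM for WT against 0.88 for KO. The log2 ratio was -0.20, close to the median of all genes, and became -0.02 once that median was set to 0. The KO to WT ratio was 0.759 (interval 0.606 to 0.949). The fourth receptor, Notch4, which is not among the members and is known from endothelium, was at 1.03 and 0.51 FPKM, a log2 ratio of -0.43. Summed over Notch1, Notch2 and Notch3, receptor FPKM was 9.14 in WT and 5.25 in KO. The shares of that sum changed little, with Notch1 at 44.5% and 42.3%, Notch2 at 42.8% and 41.0%, and Notch3 at 12.7% and 16.8%.

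Receptors are also made by cells other than epithelium, and the summed markers of 3 such cell types were lower in KO, with exceptions among single genes. All 8 endothelial markers were above 0 in both libraries, and 7 of them reached 1 FPKM in at least 1 library. They summed to 26.6 FPKM in WT against 13.7 in KO, with Cldn5, a tight junction protein, past 2-fold (3.16 and 0.50 FPKM, log2 ratio -1.47). The other measured ones ranged from Egfl7 (-0.89) to Esam (-0.29). The 8 white blood cell markers summed to 40.2 and 17.4 FPKM, with none at 0 and with Cd68 (-1.40) and Coro1a (-1.14) past 2-fold, while Itgam lay on the other side (1.26 and 1.72 FPKM, 0.27). The 10 fibroblast, pericyte and muscle markers summed to 7.47 and 4.93 FPKM, and 8 of them stayed under 1 FPKM in both libraries, among them Pdgfrb, a pericyte receptor, at 0.48 and 0.40. Of their 2 measured genes, Dcn was at 2.75 and 0.88 FPKM and Tagln at 1.94 and 2.04, and Col3a1 and Pdgfra had the same FPKM in both libraries. The 10 stem cell markers, which belong to the cells in which Notch1 and Notch2 act, summed to 142 and 110 FPKM, with 0 of 10 past 2-fold. They ranged from Cdca7 (32.38 and 16.35 FPKM, -0.94) to Tnfrsf19 (1.14 and 1.44 FPKM, 0.19), with 7 below 0 and 3 above it. Their median was -0.26, beside -0.18 for all measured genes. The part of these cells in the receptor levels was not tested.

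The 2 families of ligands lay on opposite sides. Dll1 (Entrez gene 13388), a Delta ligand, measured 6.09 FPKM in the WT library against 8.18 in the KO library. Its log2 ratio of 0.37 was the highest of the members, at percentile 90.1, and its KO to WT ratio was 1.34 (interval 1.18 to 1.52). Dll4 (Entrez gene 54485), the other Delta ligand of crypts, measured 4.77 FPKM in the WT library against 5.98 in the KO library. Its log2 ratio was 0.27 and its KO to WT ratio 1.25 (interval 1.09 to 1.44). Both Delta ligands were higher in KO by less than 1.5-fold.

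Jag1 (Entrez gene 16449), a Jagged ligand, measured 3.97 FPKM in the WT library against 2.45 in the KO library. Its log2 ratio was -0.53, at percentile 15.1, and its KO to WT ratio was 0.617 (interval 0.529 to 0.718). Jag2 (Entrez gene 16450) was the most abundant ligand in WT at 7.15 FPKM and stood at 5.33 FPKM in KO. Its log2 ratio was -0.36, with a KO to WT ratio of 0.746 (interval 0.667 to 0.834). The counting intervals of the Delta ratios did not overlap those of the Jagged ratios.

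The sum of the 4 ligands was nearly equal, 22.0 FPKM for WT against 21.9 for KO, while its makeup differed. Delta ligands made up 49.4% of the sum in WT and 64.5% in KO, so that Delta to Jagged was 0.977 in WT and 1.82 in KO. These are ratios within a library and need no scaling between libraries. By gene, Dll1 went from 27.7% to 37.3% of the sum, Dll4 from 21.7% to 27.3%, Jag1 from 18.1% to 11.2% and Jag2 from 32.5% to 24.3%. Summed ligand FPKM was 2.40 times summed receptor FPKM in WT and 4.18 times in KO. The remaining listed ligands and Delta-like homologues, Dll3, Dlk1, Dlk2 and Dner, all stayed under 1 FPKM in both libraries.

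**Figure D2:**
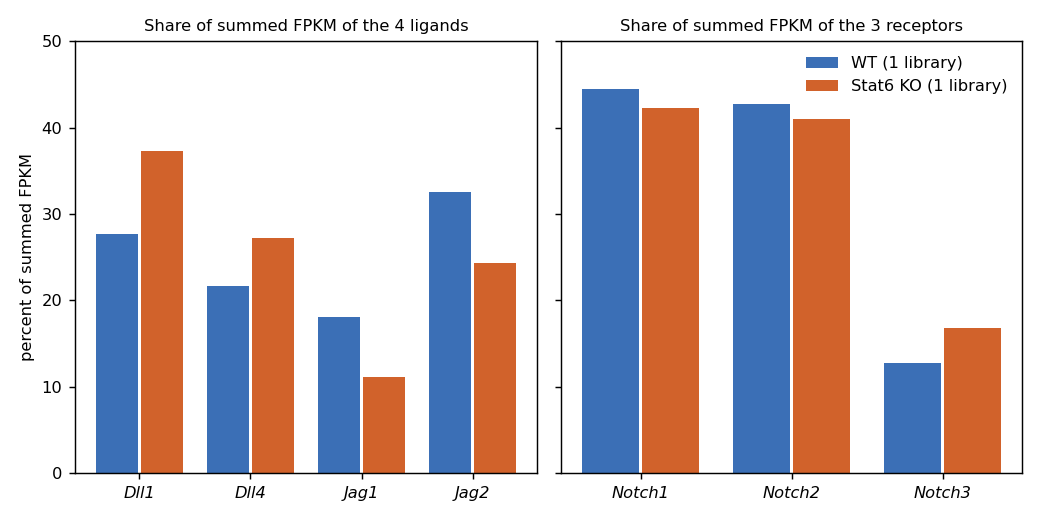
Share of each ligand in the summed FPKM of Dll1, Dll4, Jag1 and Jag2 (left) and of each receptor in the summed FPKM of Notch1, Notch2 and Notch3 (right), in percent, for the WT (blue) and Stat6 KO (orange) library. Dll1 and Dll4 take a larger share in KO (64.5% together, against 49.4%), while Notch3 goes from 12.7% to 16.8% of the receptor sum with Notch1 and Notch2 slightly smaller in KO.

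Paneth and goblet cells, which present Delta ligands in crypts, had markers on both sides. The 8 Paneth markers summed to 2208 FPKM in WT against 2308 in KO, with 0 higher by 2-fold and 2 lower, Pla2g2a (-1.08) and Mptx2 (-1.23). The 9 goblet markers, Atoh1 among them, summed to 2067 and 2412 FPKM, with Clca1 past 2-fold on the higher side (1.52) and Agr2, which folds mucins, past it on the lower side (-1.04). Muc2, the main goblet mucin, was at 25.84 and 43.14 FPKM (0.72). A few abundant genes carry such sums, and the list medians were 0.24 for goblet and 0.16 for Paneth markers, beside -0.18 for all genes. No marker of either list was at 0. Dll4 is also made by endothelium, whose markers were lower in KO as given above. The part of any of these cells in the ligand levels was not tested.

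Hes1 (Entrez gene 15205), the repressor through which Notch holds back the secretory fate, was the most abundant member in both libraries, with 13.75 FPKM for WT against 14.87 for KO. The log2 ratio was 0.11. On the deposited scale Hes1 was the only member whose counting interval included 1 (KO to WT ratio 1.08, interval 0.942 to 1.24). With the TMM-style factor its log2 ratio was 0.30, further from 0, while that of Notch3 was -0.10, nearer to 0. The intervals were not recomputed with that factor (KO over WT 0.869), so which members include 1 is given for the deposited scale. Dividing by it would take the lower end for Hes1 (0.942) and the upper end for Notch3 (0.949) above 1. The interval of Hes1 would then exclude 1 and that of Notch3 would include it. A list of 16 genes held the HES and HEY families and other widely cited Notch targets, Hes1 included, and 10 were measured. The HES and HEY genes were listed by family, whether or not Notch induces each. Of these 10, 0 were at least 2-fold higher (2.44% of all measured genes) and 1 was lower (2.19%). The median was -0.18, equal to that of all genes at this rounding. The lower one was Sox9, a crypt transcription factor, at 22.53 and 9.68 FPKM (-1.14), which came to -0.95 with the TMM-style factor and so no longer passed 2-fold. Next lowest was the survival gene Bcl2, at 1.86 and 0.50 FPKM (-0.93). Hes2, a relative of Hes1, was highest, at 0.89 and 2.42 FPKM (0.86). Hes2 passed 2-fold with the TMM-style factor (1.00), with the median of all genes set to 0 (1.04) and with a pseudocount of 0.1 (1.35). The list thus read 1 higher and 0 lower with the TMM-style factor. With a pseudocount of 0.1 Bcl2 passed 2-fold as well, at -1.71, and the list read 1 higher and 2 lower.

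A few genes of this list were singled out after their values were seen. Nrarp, a feedback inhibitor that Notch induces directly in many tissues, measured 4.90 FPKM in the WT library against 4.81 in the KO library. Its log2 ratio of -0.02 turned to 0.15 with the TMM-style factor, and also turned positive with 2 of the other 4 settings. Olfm4, a stem cell gene that depends on Notch in the mouse crypt, was at 6.92 and 5.23 FPKM (-0.35). The other HES and HEY genes Hes5, Hes7, Hey1, Hey2 and Heyl were all under 0.3 FPKM in both libraries, and Hes3 was listed at 0 in both. Hes6, a HES family member known to oppose HES1, stood higher than Hes1 in both, at 33.1 and 35.6 FPKM (0.10).

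Dtx4 (Entrez gene 207521), a Deltex ubiquitin ligase that acts on Notch receptors, was second in level in WT at 11.04 FPKM and sixth in KO at 5.21 FPKM. It had the lowest log2 ratio of the members, -0.96, at percentile 2.5 of all genes. The KO to WT ratio without the pseudocount was 0.472 (interval 0.426 to 0.523), that is, WT was 2.12 times KO. With a pseudocount of 0.1 its log2 ratio was -1.07 and passed 2-fold, and with the TMM-style factor it was -0.78.

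Dtx4 was set among 16 ubiquitin ligases and endocytic regulators of Notch receptors and ligands, of which 14 were measured (median -0.02). Of these 14, 1 was at least 2-fold higher (2.44% of all measured genes) and 1 lower (2.19%). The lower one was Dtx3, another Deltex family gene, at 12.27 and 5.25 FPKM (-1.09), which came to -0.91 with the TMM-style factor. Of the other Deltex genes, Dtx2 was at 5.10 and 4.92 FPKM (-0.04, and 0.13 with the TMM-style factor) and Dtx3l at 9.71 and 12.96 FPKM (0.38). Dtx1, at 0.31 and 0.17 FPKM, was under the minimum level, and its KO to WT ratio of 0.548 had a counting interval of 0.264 to 1.10. The higher one was Neurl1b, a Neuralized ubiquitin ligase that acts on Delta endocytosis, at 2.09 and 5.30 FPKM (1.03), although with a pseudocount of 5 it was at 0.54. Its relative Neurl1a lay on the other side, at 2.13 and 0.82 FPKM (-0.78). Itch, a ligase that targets Notch for degradation, was at 18.03 and 27.83 FPKM (0.60). Numb, an inhibitor of Notch in dividing cells, was at 16.65 and 21.88 FPKM (0.37), and was singled out after its value was seen, as were Dtx1, Dtx2, Dtx3l and Neurl1a.

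Atoh1 (Entrez gene 11921), the secretory switch that HES1 represses, measured 9.39 FPKM in the WT library against 10.91 in the KO library. The log2 ratio was 0.20, at percentile 83.1, and the KO to WT ratio was 1.16 with an interval of 1.01 to 1.33. Atoh1 to Hes1 was 0.683 in WT and 0.734 in KO, a ratio that scaling does not touch. Both members of this pair were therefore within 1.5-fold between the libraries.

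Among 21 factors of the secretory lineages, Atoh1 included, 17 were measured, with a median of -0.19. Of these 17, 0 were at least 2-fold higher (2.44% of all measured genes) and 0 lower (2.19%). The highest were Klf4, a goblet cell factor, at 26.43 and 51.33 FPKM (0.93), and Neurog3, the switch to the enteroendocrine fate, at 3.01 and 6.07 FPKM (0.82). With the TMM-style factor Klf4 passed 2-fold, at 1.13. Without the pseudocount the KO to WT ratio of Neurog3 was 2.02 (interval 1.56 to 2.62). With a pseudocount of 0.1, 1 factor passed 2-fold, Bhlha15 (0.57 and 1.38 FPKM, 1.14), which was singled out after its value was seen. The lowest were the forkhead factors Foxa1 (21.66 and 14.72 FPKM, -0.53) and Foxa3 (17.79 and 12.40 FPKM, -0.49). Gfi1 and Spdef, which act downstream of ATOH1 in goblet and Paneth cells, had log2 ratios of -0.20 and -0.35, and were singled out after their values were seen. The 10 enteroendocrine markers summed to 962 FPKM in WT against 520 in KO, with 3 of 10 at least 2-fold lower, Tph1 (-1.98), Gcg (-1.86) and Nts (-1.28). Their range otherwise ran from Chgb (-0.99) to Sct (-0.09), and the sign of Sct turned with the TMM-style factor.

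Factors of the absorptive lineage stood on the higher side. All 16 were measured, 15 of 16 lay above the median of all genes, and the list median was 0.39. Of them 2 were at least 2-fold higher (2.44% of all measured genes) and 0 lower (2.19%). Maf, a transcription factor of villus enterocytes, was at 3.16 and 16.54 FPKM (2.08), and Ppara, a fatty acid sensing receptor, at 2.01 and 5.65 FPKM (1.14, and 0.60 with a pseudocount of 5). With the TMM-style factor 3 passed, the third being Vdr, the vitamin D receptor, at 45.68 and 88.78 FPKM (0.94, and 1.14 with that factor). The lowest were the homeobox factor Cdx1 (69.23 and 58.85 FPKM, -0.23) and Elf3 (141.82 and 139.25 FPKM, -0.03), the latter turning to 0.18 with the TMM-style factor. Of the 13 enterocyte markers, 11 were at least 2-fold higher in KO, from Anpep (1.29) to Lct (2.98), and the exceptions were Apob (0.83) and Vil1 (0.57). Whether the levels of these markers depend on Hes1 or Atoh1 was not tested.

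**Figure D3:**
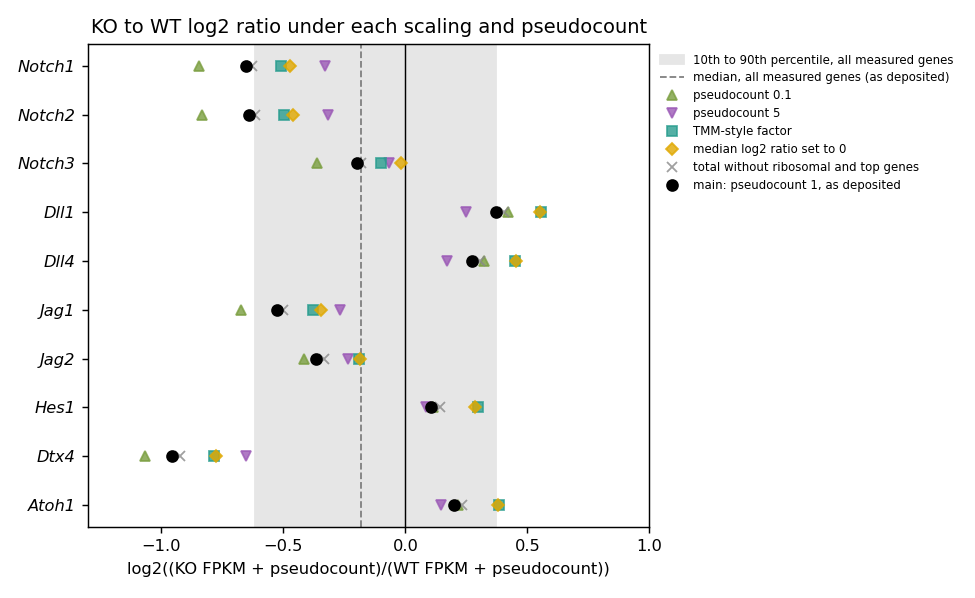
Log2 ratio of KO to WT for each of the 10 genes (black, pseudocount 1 as deposited) and under 5 other scalings and pseudocounts (coloured symbols), with the 10th to 90th percentile range of all measured genes in grey. Each gene stays on its side of 0, and only Dtx4 with a pseudocount of 0.1 passes 2-fold.

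Among genes that modify and cut receptors, no measured one passed 2-fold, where 2.44% of all measured genes were that much higher and 2.19% that much lower. Of 9 genes for receptor glycosylation and furin cleavage in the secretory pathway, 7 were measured and 0 passed 2-fold, with a median of -0.28. The extremes were Xxylt1, a xylosyltransferase (5.83 and 3.85 FPKM, -0.49), Poglut1, the O-glucosyltransferase of Notch (11.80 and 8.89 FPKM, -0.37), Pofut1, its O-fucosyltransferase (-0.15), and the Fringe gene Rfng (-0.09). The signs of Pofut1 and Rfng turned with the TMM-style factor, to 0.03 and 0.10. Gxylt2, another xylosyltransferase of the list, singled out after its value was seen, was under the minimum level at 0.59 and 0.17 FPKM, and its KO to WT ratio was 0.288 (interval 0.184 to 0.457). Of 9 ADAM proteases and gamma-secretase subunits, 8 were measured and 0 passed 2-fold, with a median of -0.10. Adam10, the protease that makes the first cut after ligand binding, was at 42.51 and 45.26 FPKM (0.09). Psen2, a gamma-secretase subunit, was at 6.09 and 3.96 FPKM (-0.52) and the small subunit Psenen at 86.28 and 67.09 FPKM (-0.36).

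Of 22 genes of the RBPJ complex, its co-activators and its co-repressors, 19 were measured and 0 passed 2-fold, with a median of -0.15. The co-repressor Ncor1 was highest (39.65 and 54.10 FPKM, 0.44), followed by the acetyltransferase Crebbp (3.79 and 4.99 FPKM, 0.32). The acetyltransferase Kat2a (14.37 and 8.86 FPKM, -0.64) and the deacetylase Hdac2 (46.60 and 34.55 FPKM, -0.42) were lowest. Rbpj itself, singled out after its value was seen, was at 8.81 and 6.54 FPKM (-0.38). Over all these lists, leaving out the 10 members, 89 genes were measured. Of them 3 were at least 2-fold higher (Neurl1b, Maf and Ppara), beside 2.44% of all measured genes. Another 2 were at least 2-fold lower (Sox9 and Dtx3), beside 2.19%. The median of the 89 was -0.08.

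**Figure D4:**
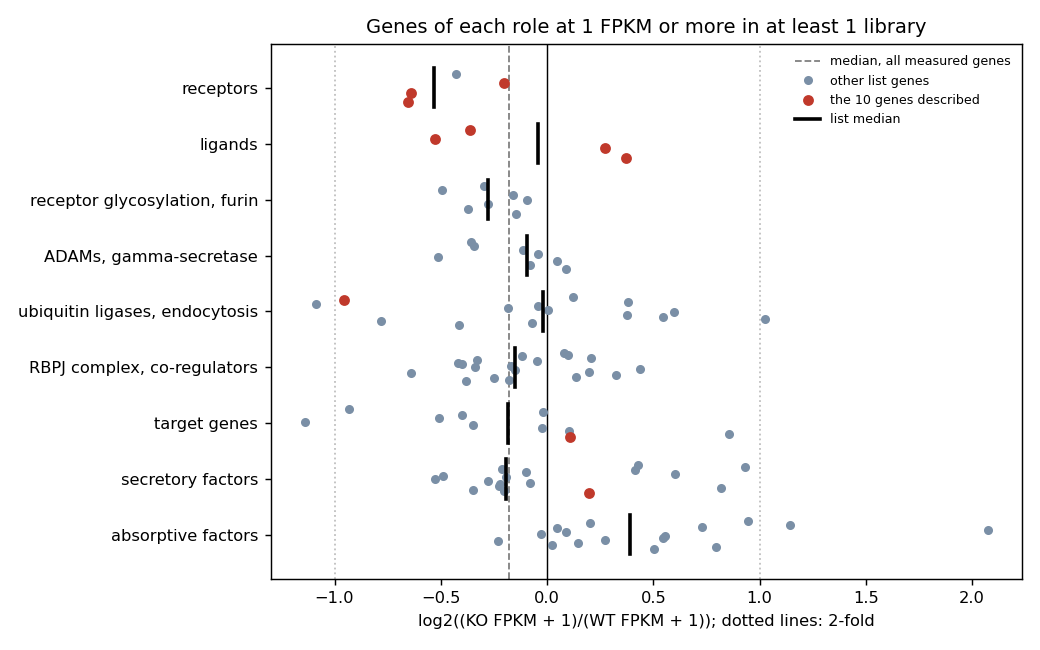
Log2 ratio of KO to WT for every measured gene of 9 lists by role in the pathway, with the 10 genes described in red, list medians as black bars and the median of all measured genes as a dashed line. Of the 89 genes outside the 10, 3 pass the upper dotted 2-fold line and 2 the lower, beside 2.44% and 2.19% of all measured genes. The absorptive factors are the list with the highest median (0.39).

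Within each library the members could be ordered by level, since FPKM is per length. In WT the order was Hes1, Dtx4, Atoh1, Jag2, Dll1, Dll4, Notch1, Jag1, Notch2 and Notch3. In KO it was Hes1, Atoh1, Dll1, Dll4, Jag2, Dtx4, Jag1, Notch1, Notch2 and Notch3. Counting intervals of neighbours overlapped in WT for Jag2 with Dll1, Dll4 with Notch1, Notch1 with Jag1 and Jag1 with Notch2. They overlapped in KO for Dll4 with Jag2, Jag2 with Dtx4, Jag1 with Notch1 and Notch1 with Notch2. Hes1 was first and Notch3 last in both, and the largest moves in rank were those of Dtx4, down from second to sixth, and of the Delta ligands, each up by 2 places.

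**Figure D5:**
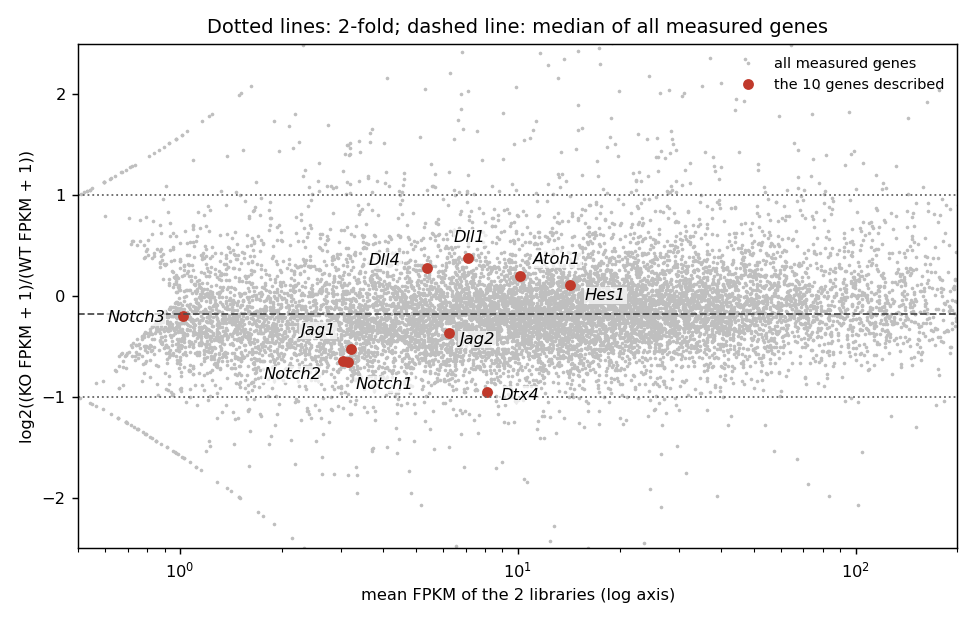
Log2 ratio of KO to WT against the mean FPKM of the 2 libraries (log axis) for measured genes (grey) and the 10 genes described (red), with the 2-fold lines dotted and the median of all measured genes dashed. Genes outside the plotted ranges are not drawn, and the 10 genes all lie inside the 2-fold lines, with Dtx4 nearest to one.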

How the data were processed

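The deposited values were FPKM per gene, computed by the authors and rounded to 2 decimals, per the file headers. HISAT, Bowtie2, RSEM and the mm9 build are named in the submitters' processing notes, without versions or roles. The annotation, the filters and the use of strand in counting are not stated. Per the labels' protocols, sequencing was single-end with 50-base reads and averaged 59000000 reads a sample. Because FPKM is relative to a library total, very abundant transcripts that change shift every other value.

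Both tables were joined on Entrez number. A gene was called when its log2 ratio (pseudocount 1) was at least 1 in size. With 1 library per genotype no test, standard error or p-value was computed. Depth was the read number, with 37 bases taken off each length, that brought low FPKM values of 323 short RNA genes closest to whole reads, searched only up to the labels' average. Within 0.1 read of a whole number lay 70.7% of such values in WT and 88.2% in KO. Member reads used GENCODE M21 transcript lengths. With these, the FPKM of 17299 genes accounted for 102% of reads in WT and 101% in KO. The read number cancels out of this share, so it does not check the estimated depth. Entrez numbers tied lengths to genes.

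The members and gene lists were chosen with earlier results of these data known. The named genes were the 10 members, and of each other pathway list every gene past 2-fold, the 2 highest and the 2 lowest. Of marker lists, genes past 2-fold and some others for the range were named. Genes singled out beyond that are identified as such. Some results that the rule selects are not reported here. The STAT6 pattern was added to the motif search after the values were seen. The alternatives were pseudocounts of 0.1 and 5, a TMM-style factor (trims of 30% and 5%, KO over WT 0.869), the median of all genes set to 0, a total without ribosomal protein genes and the 20 most abundant genes, 3 other minimum levels, and 1.5-fold and 4-fold thresholds. Calculations were tested on simulated data. Python 3.11.15, numpy 2.4.6, pandas 2.3.3, scipy 1.17.1 and matplotlib 3.10.9 were used.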

Additional observations from a re-analysis of the deposited data

How the results depend on the processing

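Among the 10 members, 0 were at least 2-fold higher under every alternative, and 0 at least 2-fold lower except for 1 with a pseudocount of 0.1 (Dtx4) and 3 at the 1.5-fold threshold. Their median log2 ratio of -0.28 became 0.15 with a minimum of 5 FPKM, which leaves out the receptors and Jag1, and moved by no more than 0.19, the median half-width of the members' counting intervals on the log2 scale, with the other alternatives. Over all genes, the 295 higher and 264 lower became 374 and 607 with a pseudocount of 0.1, 144 and 63 with a pseudocount of 5, 690 and 1385 at 1.5-fold, and 51 and 27 at 4-fold. The 264 lower genes also became 160 with the median set to 0, 150 with a minimum of 5 FPKM and 166 with 1 FPKM required in both libraries. With the median set to 0 the split was 71.9% higher and 28.1% lower. Of 75 values of single members under an alternative, 62 stayed within counting error of the main value and 13 did not, with no change of sign. Minimum levels only leave genes out, so values under them equal the main value and are among the 62. A change of sign was possible only for members lower in KO, under the scalings that raised KO. Of 18 counts of genes past 2-fold in the fixed lists (the receptor and ligand lists, which hold members, included), 14 were 0, which says little about stability. The other 4 moved by over 1.5 times in 18 of 40 cases. No paired analysis was possible because each genotype has 1 library. Depth limits Notch3 most, with 186 approximate reads in WT and 144 in KO.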
